A study of Homo sapiens with 50 samples.

Results

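The genes described here are 9 members of the MHC class I antigen presentation pathway, B2M, HLA-B, HLA-C, HLA-E, TAP1, TAP2, TAPBP, PSMB8 and PSMB9. They were found on the array by gene name among the probes that are not controls, and 16 of the 34127 such probes carried one of these names. Of the 16 probes, 14 passed the criterion on signal over background that 20079 probes passed, and each of the 9 genes had at least 1 probe among them.

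MHC class I molecules show peptides from the inside of a cell to CD8 T cells and natural killer cells. A heavy chain, such as HLA-B, HLA-C or HLA-E, pairs with the light chain beta-2 microglobulin, which B2M encodes. Peptides are cut by the proteasome, whose immunoproteasome form carries the subunits PSMB8 and PSMB9, pumped into the endoplasmic reticulum by the TAP1 and TAP2 transporter, and loaded onto the heavy chain with the help of tapasin, the product of TAPBP. The genes are inducible by interferons, and their expression is often lowered in tumors.

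The study measured mRNA of H1299, a line from a human lung carcinoma of the non-small cell type, and of H1299shRAD9, the same line with a stably integrated retroviral vector that expresses a short hairpin RNA against RAD9. Confluent cells on the thinner Mylar of concentric dishes took 1 Gy of α particles, the bystander cells grew on the thicker Mylar of the same dish, and RNA was taken 4 h later. Each cell line had 5 exposure groups of 5 arrays, so that 10 groups and 50 single-color Agilent arrays were compared. CTL cells were sham irradiated. DBP were directly irradiated cells from dishes whose bystander cells had many micronuclei, and BP were those bystander cells. DBN and BN were the directly irradiated and the bystander cells from dishes whose bystander cells had few micronuclei. The samples of every group, CTL included, were selected by the authors on their micronucleus counts, with CTL chosen for a low count. Every group of H1299shRAD9, CTL included, carries the hairpin and the puromycin selection, whereas H1299 is the untransfected line, so the hairpin, the vector, the selection and clonal origin cannot be told apart. The authors used 2 stable transfectants, and the labels do not say which of them gave a sample. The replicates of a group are described in the study as independent biological samples.

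A level is log2 of the background-corrected intensity minus the median of the array over all probes. Because every array is set to its own median, a difference is relative to the other probes, and the median difference of all 20079 probes between H1299shRAD9 and H1299 was 0.12 in CTL and 0.16 over the 5 exposures. Probes well above background made up 55.4% to 73.1% of the probes on the H1299shRAD9 arrays and 59.7% to 83.4% on the H1299 arrays. A 5′ to 3′ index of RNA quality, the difference between 5′ and 3′ probes of the same gene, had a median of -0.01 in H1299shRAD9 and 0.06 in H1299. In H1299shRAD9 CTL it was -0.12. The RAD9A probe, which reads mRNA, was at 81.1% of its H1299 level in CTL (log2 difference -0.30, SE 0.12, adjusted p = 0.0855) and did not pass the test. Its levels were 2.85 to 3.75 on the H1299shRAD9 arrays and 2.60 to 4.09 on the H1299 arrays. The study checked the knockdown by Western blot and reports lower RAD9 protein in both transfectants, which the arrays do not measure. The groups are named by their labels. Keratins (KRT8, KRT18, KRT7 and KRT19), vimentin and CDH2 were well above background on all 50 arrays, whereas the epithelial cadherin CDH1 was well above background on 0. The epithelial gene EPCAM was so on 4 H1299 arrays and 1 H1299shRAD9 array, and the mesenchymal gene FN1 on 0 and 1. Of 9 class II genes, HLA-DRB1, HLA-DPA1 and HLA-DQB1 were well above background on all arrays, 4 on some, and HLA-DRA and CD74 on 0. Of 7 leukocyte genes 4 were on all arrays (PTPRC, CD14, CD68 and ITGAM), 2 on some and MS4A1 on 0, with summed intensities, in multiples of the array median, of 11.2 to 104 in H1299shRAD9 and 13.5 to 181 in H1299, and their part in the results was not tested.

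The sequences of the HLA-B and HLA-C probes are shown because the heavy chain genes are close relatives and among the most polymorphic genes of the genome. HLA-B had 3 probes. Probe A_33_P3399208, which carries the largest difference between the cell lines below, is named HLA-B by the array design but has no genome position there and is tied to no RefSeq transcript, so whether it reads HLA-B alone was not tested. It is shown whole, in lower case because no stretch of it is singled out.
HLA-B A_33_P3399208: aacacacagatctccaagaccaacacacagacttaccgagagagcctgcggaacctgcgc

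The other HLA-B probes, A_33_P3424800 (hg19, chr6:31321663-31321722, minus strand) and A_33_P3379947 (chr6:31321653-31321712), overlap the HLA-C probe A_33_P3424803 (chr6:31321644-31321703). The 3 probes have 41 bases in common, and within them 1 position differs, shown in capitals in a window of 30 bases. Counted from 1 at the 5′ end of the window, the substitution in A_33_P3379947 is G16T.
HLA-B A_33_P3424800: agtcaattcctggaaGttgagagagcaaat
HLA-B A_33_P3379947: agtcaattcctggaaTttgagagagcaaat
HLA-C A_33_P3424803: agtcaattcctggaaGttgagagagcaaat
The array design ties both of these HLA-B probes to RefSeq transcripts of HLA-B and of HLA-C. It ties A_33_P3424803 to no RefSeq transcript. The values of the 3 probes are given under the names of the files, but the signals of HLA-B and HLA-C transcripts cannot be told apart in them. The HLA-C probe A_33_P3330109 (chr6:31236617-31236676) was tied to HLA-C alone.

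Among the heavy chain probes, HLA-B A_33_P3399208 had the largest difference between unirradiated cell lines. Its levels in H1299shRAD9 CTL were 2.25, 2.20, 2.28, 2.32 and 2.30, and in H1299 CTL 3.05, 3.30, 2.79, 3.0 and 2.96. Every H1299shRAD9 array was below every H1299 array, and the H1299shRAD9 values lay within a far narrower range. The mean was 59.6% of that in H1299 (log2 difference -0.75, SE 0.11, 95% interval -0.98 to -0.51, adjusted p = 0.00237). An exact permutation test, two-sided, gave 0.00794, the smallest value that 5 against 5 arrays allow.

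The same probe was lower in H1299shRAD9 over all exposures. The means of the 5 exposures, by replicate number, were 2.36, 2.26, 2.46, 2.27 and 2.38 in H1299shRAD9 and 2.95, 2.98, 2.98, 2.96 and 2.90 in H1299. These means did not overlap, and the level in H1299shRAD9 was 65.5% of that in H1299 (log2 difference -0.61, SE 0.08, adjusted p = 0.000675). By irradiated group the difference was -0.58 in BP, where it passed the test (adjusted p = 0.0359), -0.39 in DBP, -0.68 in BN and -0.66 in DBN. BN replicate 3, at 3.23, and DBN replicate 5, at 3.03, stood above the other H1299shRAD9 arrays, which lay between 2.05 and 2.52. The H1299 arrays lay between 2.42 and 3.77, so the upper end of the H1299shRAD9 values overlapped them. In DBP replicate 2 H1299shRAD9 was at 2.51 and H1299 at 2.42. BN replicate 3 also had the highest 5′ to 3′ index of its cell line (0.14) and 73.1% of its probes well above background, and the part of either in its HLA-B level was not tested.

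The probes that HLA-B and HLA-C share did not pass the test. A_33_P3424800 differed by -0.09 in CTL (95% interval -0.45 to 0.26) and A_33_P3379947 by -0.19 (-0.53 to 0.15), with HLA-C A_33_P3424803 at -0.16 (-0.52 to 0.21). None of these intervals reached the -0.75 of A_33_P3399208, but its own interval overlapped those of A_33_P3379947 and A_33_P3424803. Differences between probes were not tested. The arrays of the lines overlapped for A_33_P3424800, A_33_P3379947 and A_33_P3424803. The HLA-C probe tied to HLA-C alone, A_33_P3330109, was at 79.4% of its H1299 level in CTL (log2 difference -0.33, SE 0.17, adjusted p = 0.189) and at 80.0% over the 5 exposures (-0.32, SE 0.13, adjusted p = 0.0862). Its groups overlapped in both comparisons and it did not pass.

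HLA-E encodes a less polymorphic heavy chain, the ligand of the inhibitory receptor NKG2A of natural killer cells. Its probe (chr6:30460729-30460788, plus strand) starts as shown, in lower case because nothing in it is singled out.
HLA-E A_32_P460973: cttcctcacactgacctgtgttccttccct
HLA-E levels were 6.02, 6.13, 6.03, 5.99 and 5.76 in H1299shRAD9 CTL and 6.79, 6.58, 6.29, 6.20 and 6.29 in H1299 CTL. The 2 groups did not overlap, although the highest H1299shRAD9 array and the lowest H1299 array lay close together. The difference of -0.44 (SE 0.13, adjusted p = 0.0395) had an unadjusted p of 0.00605, just over the 0.005 that this comparison required, and was not counted as passing. Over the 5 exposures HLA-E did pass, at 73.7% of its H1299 level (log2 difference -0.44, SE 0.12, adjusted p = 0.0243). Its replicate means there were 6.15, 6.05, 6.02, 5.97 and 5.87 in H1299shRAD9 and 6.54, 6.86, 6.27, 6.29 and 6.30 in H1299, with no overlap. The 5 group means of H1299shRAD9, 5.99 to 6.04, were all below the 5 of H1299, 6.31 to 6.61. In DBP the arrays did not overlap either (-0.53, SE 0.17, adjusted p = 0.104), while in BP, DBN and BN they did.

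The light chain gene B2M (chr15:45007773-45007832), read by 10 spots on each array, differed by -0.20 in CTL (SE 0.16, adjusted p = 0.380) and by -0.18 over the 5 exposures (SE 0.13, adjusted p = 0.292). In BN its 5 H1299shRAD9 arrays lay between 7.42 and 7.46 and its H1299 arrays between 7.55 and 8.02. These groups did not overlap, but the difference of -0.26 (SE 0.12, adjusted p = 0.175) did not pass the test.

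TAP2, a subunit of the peptide transporter, differed the other way from HLA-B A_33_P3399208 and HLA-E. Its 2 probes read different RefSeq transcripts, A_33_P3214650 at chr6:32793222-32793281 and A_23_P368067 at chr6:32789804-32789863, both on the minus strand. Their first 30 bases are shown because only one of them gave a signal.
TAP2 A_33_P3214650: gctcagtattttcgcaaacagcagctgtct
TAP2 A_23_P368067: cccaaagcctttggttcctcagtttccaaa
A_23_P368067 was not well above background on any of the 50 arrays, so the level of its transcript was not measured in either line. The values that follow are of A_33_P3214650.

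TAP2 levels were 3.68, 3.78, 4.23, 4.21 and 4.07 in H1299shRAD9 CTL and 3.77, 3.46, 3.48, 3.39 and 3.50 in H1299 CTL. Replicate 1 of H1299 reached into the H1299shRAD9 values, and the other H1299 arrays were below all of them. TAP2 was at 139% of its H1299 level (log2 difference 0.47, SE 0.14, adjusted p = 0.0325) and passed the test. With the 75th percentile scaling the difference was 0.39 and did not pass, and 15 of 18 alternatives lost this call. Over the 5 exposures the replicate means, 3.66, 3.77, 4.07, 4.19 and 4.11 against 3.40, 3.53, 3.19, 3.54 and 3.51, did not overlap, and the level was 144% of that in H1299 (log2 difference 0.53, SE 0.12, adjusted p = 0.0119). In BP it was 164% (log2 difference 0.72, SE 0.18, adjusted p = 0.0412), and in DBP, DBN and BN the differences of 0.46, 0.51 and 0.47 did not pass. All 5 group means of H1299shRAD9, 3.91 to 3.99, were above those of H1299, 3.26 to 3.52.

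TAP1, the other transporter subunit (chr6:32813210-32813269), differed by -0.12 in CTL (95% interval -0.44 to 0.20) and by 0.00 over the 5 exposures (-0.27 to 0.27). TAP1 did not pass in either, and the difference between the changes of TAP1 and TAP2 was not tested. Tapasin was read by 4 TAPBP probes. Of these 3 passed the background criterion and differed in CTL by -0.11 (A_23_P365719, chr6:33267718-33267777), -0.16 (A_33_P3325914, chr6:33271911-33271970) and 0.05 (A_23_P259580, whose ends lie 7889 bases apart, so that it spans an intron), with the last turning to -0.04 under 75th percentile scaling and -0.01 under quantile normalization. None of them passed. The fourth, A_23_P360291, lay well above background on no more than 4 of the 50 arrays and was not tested.

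Of the immunoproteasome subunits, PSMB8 had the larger difference. Its levels in CTL were 1.76, 1.59, 2.54, 2.41 and 2.27 in H1299shRAD9 and 2.38, 2.80, 2.75, 2.47 and 2.61 in H1299. The H1299shRAD9 arrays fell into 2 lower and 3 higher values. Of the higher ones, 2.54 and 2.41 overlapped H1299, while 2.27 lay below every H1299 array. PSMB8 was at 71.3% of its H1299 level (log2 difference -0.49, SE 0.19, adjusted p = 0.0839), with an unadjusted p of 0.0224 that missed the threshold. PSMB9 (chr6:32823918-32823977) differed by 0.07 (95% interval -0.14 to 0.29), which turned to -0.01, -0.02 and -0.05 under 75th percentile scaling, quantile normalization and normexp background correction.

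In CTL, 2 of the 14 member probes passed the test, HLA-B A_33_P3399208 and TAP2 A_33_P3214650. That is 14.3% of them, where 14.2% of all probes tested passed. A_33_P3399208 is the dimmest HLA-B probe, with a mean level of 2.65 over the 50 arrays. The brighter HLA-B probes A_33_P3424800 and A_33_P3379947, at 8.23 and 7.84, did not pass. Over the 5 exposures 3 of 14 passed (21.4%), where the share of all probes was 17.6%. In BP 2 of 14 passed, where 7.71% of all probes did, and in DBP, DBN and BN 0 of 14, where 5.95%, 4.38% and 8.46% did. At an unadjusted p under 0.05 the counts in those last 3 groups were 2, 2 and 4 of 14, where 22.8%, 20.8% and 28.4% of all probes were. The share of members in CTL was that of the probes at large, so the count there says nothing particular about the members. Their direction is described by the median, -0.16 in CTL where the median of all probes was 0.12, and -0.20 over the 5 exposures where it was 0.16. In DBP, DBN and BN the median was -0.31, -0.36 and -0.16, but in BP it was -0.02, with 8 probes lower and 6 higher, where the median of all probes was 0.15. In CTL and over the 5 exposures 13 of the 14 probes, all but TAP2, lay below the median of all probes. Some genes have several of these probes, and 3 HLA-B and HLA-C probes overlap, so the probes are not independent. With only the brightest probe of each gene, 7 were lower and 2 higher in CTL (median -0.12). Over the 5 exposures 6 were lower and 3 not (median -0.18), and in BP 3 were lower and 6 higher (median 0.07).

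**Figure D1:**
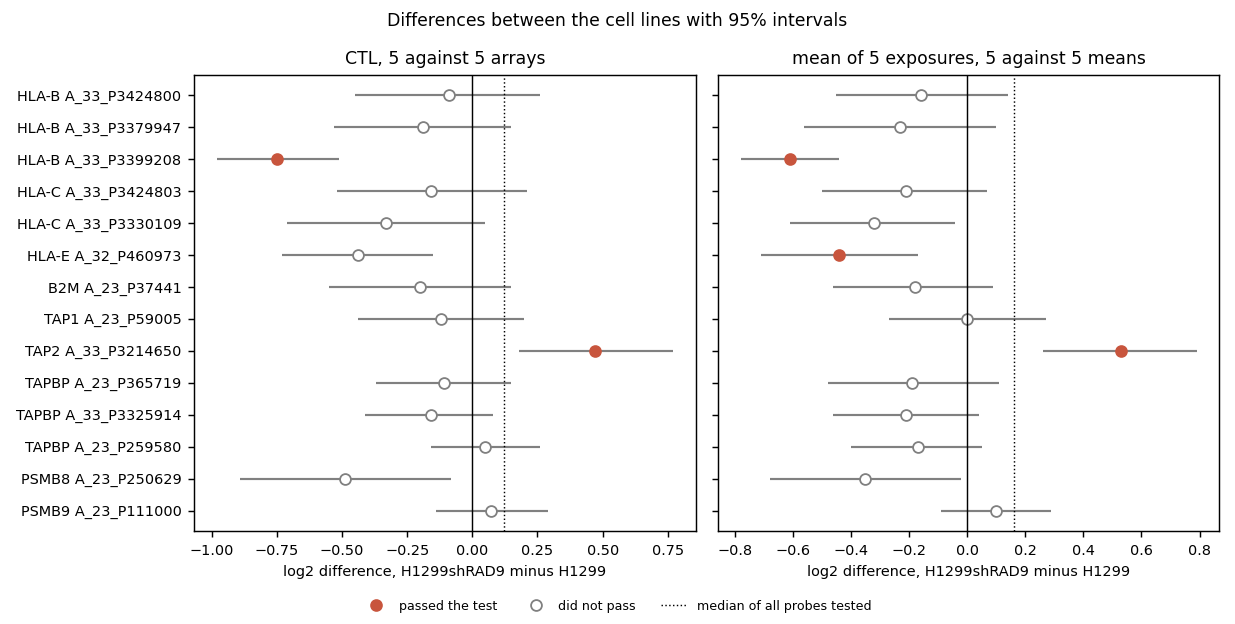
Log2 difference of each of the 14 tested probes between the cell lines (H1299shRAD9 minus H1299, x axis) in CTL on the left and over the means of 5 exposures on the right, with 95% intervals from 5 against 5 values, filled points for probes that passed the test and a dotted line at the median of all probes tested. HLA-B A_33_P3399208 lies lowest, at -0.75 and -0.61, TAP2 alone lies to the right of the dotted line in both panels, at 0.47 and 0.53, and PSMB9 and TAPBP A_23_P259580, which lie right of 0 in CTL, change sign under other scalings.

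The plot of line differences sets the 14 probes side by side. Most intervals in it cross 0, and most points lie to the left of the dotted line, including those of B2M and the shared HLA-B and HLA-C probes. The levels of the probe with the highest mean signal for each gene are drawn by group in the plot of levels, which shows the spread behind these differences.

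**Figure D2:**
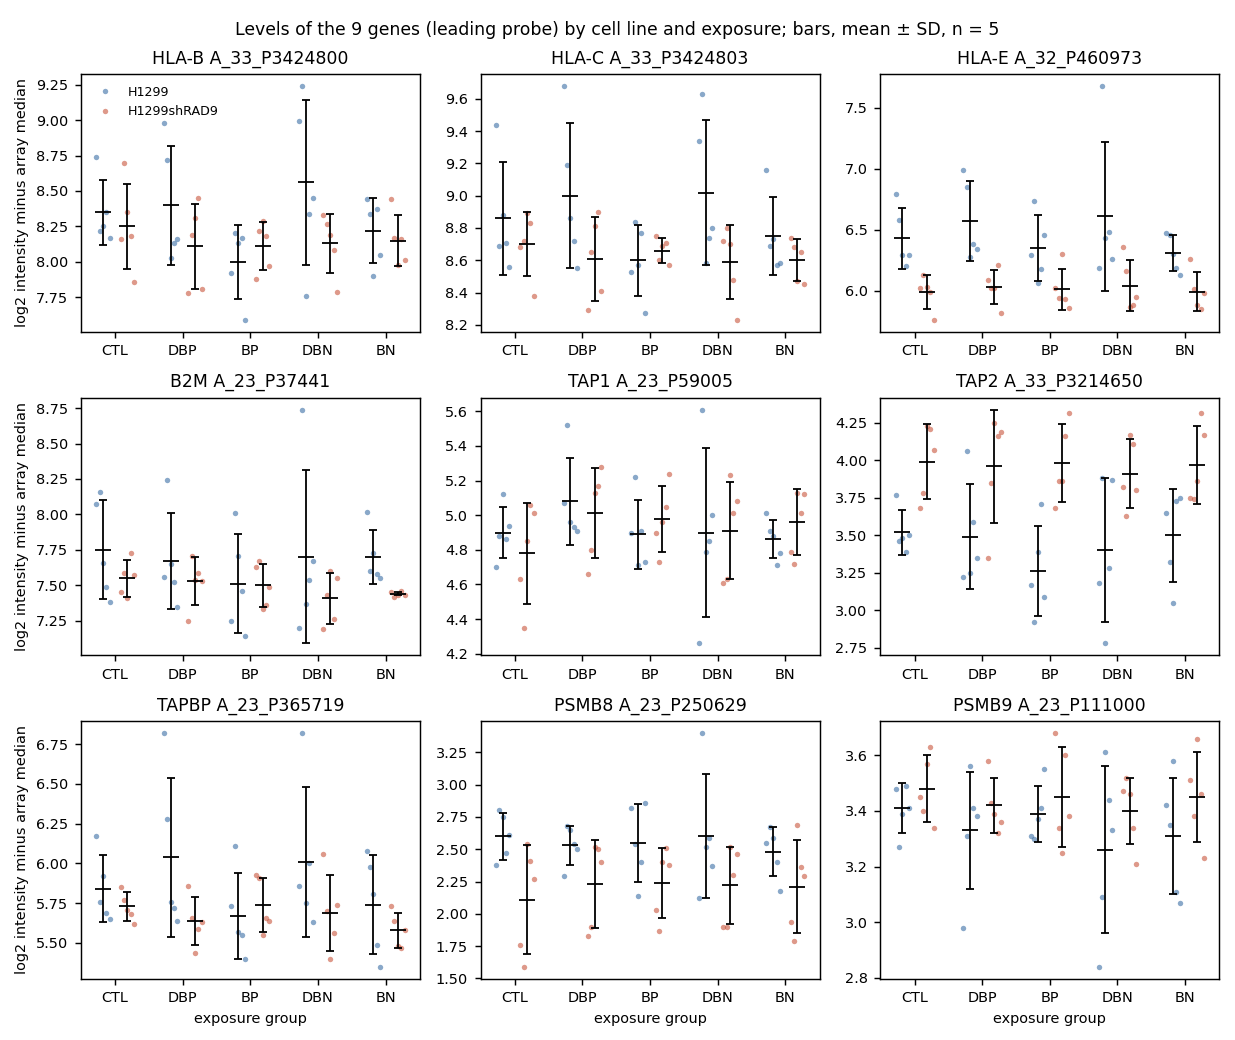
Levels (log2 intensity minus the median of the array, y axis) of the probe with the highest mean signal of each of the 9 genes by exposure group, H1299 in blue and H1299shRAD9 in red, with a point for every array and bars for the mean ± SD of 5 arrays. The mean of HLA-E is lower and that of TAP2 higher in H1299shRAD9 in every exposure group, and the H1299 DBN arrays are widely spread, with an SD of 0.61 for HLA-E and for B2M.

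Irradiation itself moved no member past the test. In H1299shRAD9, 0 of 56 tests of 14 probes in 4 irradiated groups against CTL passed, and 1 had an unadjusted p under 0.05, where 10.4% to 14.6% of all probes did. Of all probes 1.53% passed in DBP, 2.74% in DBN, 1.35% in BP and 0.0299% in BN. In H1299 0 of 56 passed and 0 had an unadjusted p under 0.05, where 2.99% to 5.85% of all probes did. There the shares of all probes that passed were 0.0349% in DBP, 0.00996% in DBN and 0% in BP and in BN. The 4 comparisons of a cell line share its CTL arrays and are not independent.

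The intervals are not adjusted for the number of probes, so they give the precision of each difference, not the size that could pass. In H1299 BP and BN against CTL the smallest adjusted p of any probe in limma's test was 0.825 and 0.999. In H1299shRAD9 the differences from CTL ran from -0.29 to 0.23, with intervals that reached from -0.58 to 0.56 and a median reach of 0.22 to either side. In H1299 they ran from -0.35 to 0.28, with intervals from -0.74 to 0.72 and a median reach of 0.35. The intervals of H1299 were thus the wider ones, and a change of a given size was harder to detect there.

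TAP1 in H1299shRAD9 DBP was the test with the smallest p. Its levels were 4.66, 4.8, 5.13, 5.17 and 5.28 in DBP and 4.63, 4.35, 4.85, 5.06 and 5.01 in the CTL arrays of the same numbers. TAP1 was higher in DBP in 5 of 5 pairs, while the groups overlapped. The difference was 0.23 (SE 0.09, adjusted p = 0.294) and did not pass. In BP, DBN and BN of the same line TAP1 differed by 0.19, 0.13 and 0.17, and in H1299 by 0.18 in DBP, 0.00 in DBN, -0.01 in BP and -0.04 in BN.

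HLA-B A_33_P3424800 was lower in H1299 BP than in CTL in 5 of 5 pairs, by -0.35 (SE 0.16, adjusted p = 0.825). Of 72 tests over the probes with the highest mean signal, 3 had all pairs on one side, these 2 and TAPBP A_23_P365719 in H1299shRAD9 BN (-0.15, SE 0.07, adjusted p = 0.419). The probes that differed between the cell lines stayed close to CTL in the irradiated H1299shRAD9 groups, where HLA-E differed by 0.01 to 0.06, TAP2 by -0.09 to -0.02 and HLA-B A_33_P3399208 by 0.04 to 0.18.

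**Figure D3:**
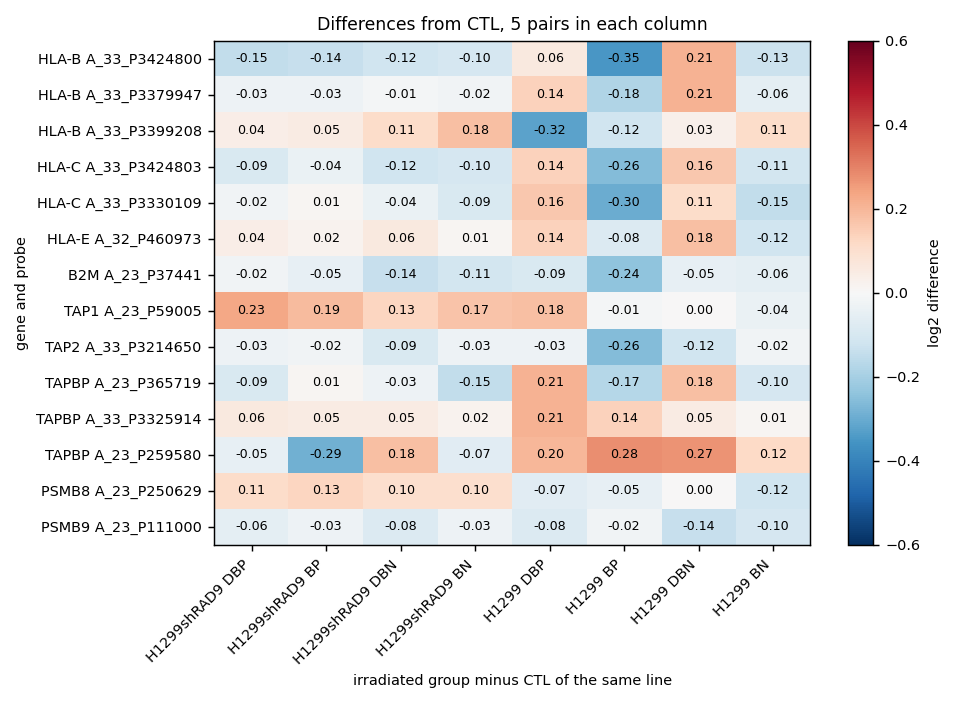
Log2 difference of each of the 14 tested probes (rows) between each irradiated group and the CTL of the same line (columns), as a mean of 5 pairs, with red above and blue below 0 on a scale from -0.6 to 0.6. TAP1 is above 0 in the 4 H1299shRAD9 columns, 0.13 to 0.23, the 5 HLA-B and HLA-C probes are below 0 in H1299 BP, -0.35 to -0.12, and no difference in the map passed the test.

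The heat map of irradiation differences shows that H1299 BP was the column with the most members below 0, 12 of 14, with a median of -0.15 where the median of all probes was -0.04. The responses of the 2 cell lines were compared as an interaction. None of 56 such tests passed, where 0% of all probes did in any exposure, and 1 had an unadjusted p under 0.05, TAPBP A_23_P259580 in BP (-0.57, SE 0.18, adjusted p = 0.787). Directly irradiated and bystander cells of the same dishes were compared in each line too. In these 56 tests 0 passed, where the shares of all probes were 0.0847% for DBP and BP and 0.0797% for DBN and BN in H1299shRAD9, and 0.00498% in both comparisons in H1299. An unadjusted p under 0.05 was found for 2, TAPBP A_23_P259580 in H1299shRAD9 (DBP above BP by 0.23, adjusted p = 0.940) and HLA-C A_33_P3330109 in H1299 (DBP above BP by 0.46, adjusted p = 0.650).

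Several members had levels that went with the replicate number of the labels. PSMB8 in H1299shRAD9 lay between 1.76 and 2.03 on the 5 arrays numbered 1 and between 1.59 and 1.90 on those numbered 2. On the arrays numbered 3, 4 and 5 it lay at 2.40 to 2.69, 2.30 to 2.51 and 2.27 to 2.46. The ranges of numbers 1 and 2 did not meet those of the other numbers in any exposure group. TAP1 in this line lay at 4.61 to 4.90 and 4.35 to 4.8 in numbers 1 and 2 and at 4.85 to 5.23, 5.01 to 5.17 and 5.01 to 5.28 in numbers 3, 4 and 5, and TAP2 at 3.35 to 3.82 and 3.63 to 3.86 against 3.86 to 4.25, 4.11 to 4.32 and 3.80 to 4.32. These 2 genes were thus mostly lower in the same numbers as PSMB8, whereas TAPBP A_33_P3325914 was higher in number 1 (1.65 to 2.04, against 1.17 to 1.53 in number 3).

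In H1299 the numbers parted other members. HLA-B A_33_P3379947 lay at 7.83 to 8.79 and 7.90 to 8.67 in numbers 1 and 2 and between 7.54 and 7.92 in the others. HLA-E reached 6.99 and 7.68 in numbers 1 and 2, and no more than 6.48 in the others. The highest HLA-E value belonged to DBN replicate 2, whose index was -0.29, one of the arrays with the lowest 5′ to 3′ index, and its part in that value was not tested. Each number was hybridized on 2 or 3 slides in a line, and 3 of 8 slides in H1299shRAD9 and 3 of 7 in H1299 held 1 number only, so slide and number are partly mixed. The labels do not say what a number stands for.

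**Figure D4:**
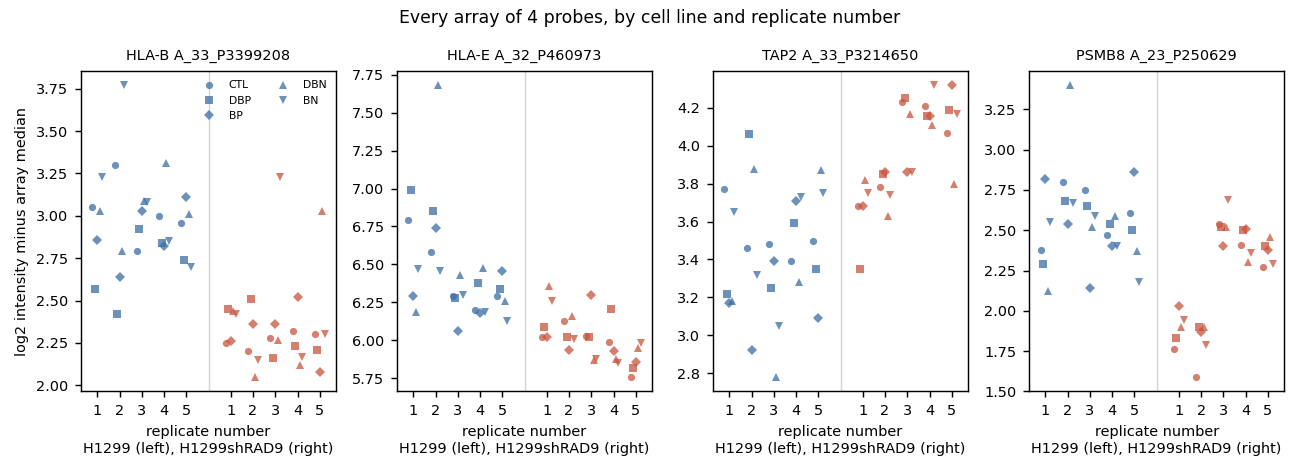
Levels (log2 intensity minus the median of the array, y axis) of 4 probes on every array by replicate number (x axis), H1299 on the left in blue and H1299shRAD9 on the right in red, with a symbol for each exposure group. Most H1299shRAD9 arrays of HLA-B A_33_P3399208 lie at 2.05 to 2.52, below most H1299 arrays (2.42 to 3.77), with 2 arrays at 3.23 and 3.03, and PSMB8 in H1299shRAD9 goes no higher than 2.03 in numbers 1 and 2 and no lower than 2.27 in numbers 3 to 5.

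The plot of arrays by number shows these steps beside the exposure symbols. Slides were a batch that could be set against the line difference, since 2 of 13 slides held both cell lines. On these 2 slides HLA-E differed by -0.37 and -0.36 and TAP2 by 0.38 and 0.37, each with 1 H1299shRAD9 array. The exposures were unlike, so these differences do not separate cell line from exposure. One slide set H1299shRAD9 DBN against H1299 CTL and DBP, the other H1299shRAD9 BP against H1299 DBN, BN and BP. On the latter, H1299 DBN replicate 1 and BP replicate 5 had 83.4% and 71% of their probes well above background. HLA-B A_33_P3399208 differed by -0.87 on one and by 0.18 on the other, where the H1299shRAD9 array was DBN replicate 5. B2M, which was lower in H1299shRAD9 across slides, was higher by 0.18 on both. With the slide as a fixed term, which uses only these 2 slides for the line difference, HLA-B A_33_P3399208 was at -0.38 (adjusted p = 0.272), HLA-E at -0.39 (adjusted p = 0.129) and TAP2 at 0.45 (adjusted p = 0.160) over the 5 exposures, and none passed.

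Other settings kept the 3 directions but not all calls. HLA-B A_33_P3399208 in CTL passed under all 17 alternatives that gave a value, between -0.83 and -0.66, and over the 5 exposures it was lost only with the slide as a fixed term. HLA-E in CTL, which missed the threshold, passed under 5 of 17, and over the 5 exposures it was lost under 8 of 19. TAP2 lay between 0.29 and 0.62 in CTL, where 15 of 18 alternatives lost the call, and between 0.38 and 0.62 over the 5 exposures, where 5 of 20 lost it.

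**Figure D5:**
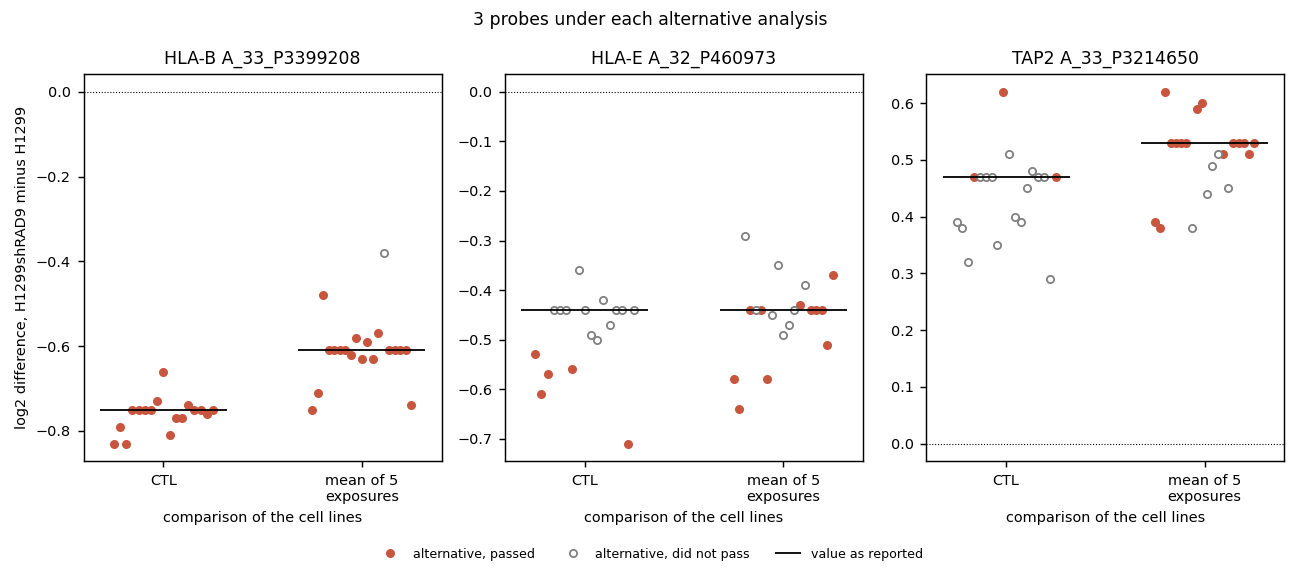
Log2 difference between the cell lines (H1299shRAD9 minus H1299, y axis) of HLA-B A_33_P3399208, HLA-E and TAP2 in CTL and over the 5 exposures under each alternative analysis, with a filled point where the probe passed the test, an open point where it did not, and a line at the value as reported. All points of HLA-B and HLA-E lie below 0 and all points of TAP2 above 0, and TAP2 in CTL has mostly open points.

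The plot of alternatives separates direction from call. No setting turned the sign of any of the 3 probes, while the calls of HLA-E and TAP2 changed with the setting.

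The other genes of the pathway were taken from 5 lists. Of 7 tested class I genes outside the members, 0 passed limma's test in CTL, where 14.2% of all probes did. There 5 had an unadjusted p under 0.05, where 36.0% of all probes did. Over the 5 exposures 1 passed, where 17.6% of all probes did. It was HLA-F, a further heavy chain gene, at 73.4% of its H1299 level (log2 difference -0.45, SE 0.12, adjusted p = 0.0241). Of 10 peptide loading and trimming genes 0 passed limma's test in either comparison, and 1 in CTL and 3 over the 5 exposures had an unadjusted p under 0.05, where 36.0% and 41.3% of all probes did. In CTL 3 of 10 proteasome genes passed, where 14.2% of all probes did. PSMB10, the third immunoproteasome subunit, was higher in H1299shRAD9 by 0.50 (SE 0.13), PSME3 higher by 0.77 (SE 0.21) and PSME1, a subunit of the interferon-inducible activator, lower at -0.36 (SE 0.10). PSMB10 was also higher in BP, DBN and BN and over the 5 exposures (0.56, SE 0.08, adjusted p = 0.00173), whereas PSMB8 was at -0.35 there (adjusted p = 0.10) and did not pass. Over the 5 exposures PSME3 passed too (0.53, adjusted p = 0.0125), whereas PSME1 was at -0.10 (adjusted p = 0.363) and did not.

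Among the 17 tested regulators, TYK2, a kinase that carries interferon signals, passed in CTL, where 14.2% of all probes did. It was lower in H1299shRAD9, at 71.4% of its H1299 level (log2 difference -0.49, SE 0.13, adjusted p = 0.0237). Over the 5 exposures TYK2 was at -0.32 (adjusted p = 0.117) and did not pass. In CTL the interferon receptor gene IFNAR1 was higher by 0.62 (SE 0.15, adjusted p = 0.0170). Over the 5 exposures IFNAR1 (0.54) and IFNGR1 (0.44) were both higher and passed, where 17.6% of all probes did. Of 5 tested class II genes 1 passed in CTL, where 14.2% of all probes did. It was HLA-DQB1, higher by 0.65 (SE 0.15, adjusted p = 0.0176). After irradiation 1 gene of all these lists passed, CANX, the chaperone calnexin, in H1299shRAD9 DBN (0.62, SE 0.14, adjusted p = 0.0994), where 2.74% of all probes passed.

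The profile of the members over the 10 groups, as the mean of their probes with the highest signal, was most like that of C16orf45 (Pearson r = 0.972), ABHD14B (0.971), the transcript THC2680667 (0.970), C6orf35 (0.957) and NEU1 (0.951) among 15789 genes, over 10 group means that share their arrays.

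The promoters of 4 members are shown because each holds matches to motifs of NF-κB and of interferon response, through which class I genes are known to be induced. TGACG and CCAAT resemble parts of the SXY module of class I promoters, and the TAP1 stretch holds no match to either. The stretches run from 200 to 41 bases before the RefSeq transcription start (GRCh38.p14), on the strand of the gene, and capitals mark matches to the motifs named after them.
HLA-B (chr6:31357220-31357379, minus strand): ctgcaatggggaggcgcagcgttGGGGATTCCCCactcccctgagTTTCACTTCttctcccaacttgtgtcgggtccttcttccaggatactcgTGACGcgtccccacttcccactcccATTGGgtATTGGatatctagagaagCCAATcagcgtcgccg
HLA-C (chr6:31272133-31272292, minus strand): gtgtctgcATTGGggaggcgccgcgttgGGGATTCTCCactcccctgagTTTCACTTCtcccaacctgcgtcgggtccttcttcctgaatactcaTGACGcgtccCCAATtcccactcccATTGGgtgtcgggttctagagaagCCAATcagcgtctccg
B2M (chr15:44711317-44711476, plus strand): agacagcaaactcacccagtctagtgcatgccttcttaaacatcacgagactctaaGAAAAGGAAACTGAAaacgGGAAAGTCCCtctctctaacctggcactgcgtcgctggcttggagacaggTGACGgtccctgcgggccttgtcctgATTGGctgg
TAP1 (chr6:32853745-32853904, minus strand): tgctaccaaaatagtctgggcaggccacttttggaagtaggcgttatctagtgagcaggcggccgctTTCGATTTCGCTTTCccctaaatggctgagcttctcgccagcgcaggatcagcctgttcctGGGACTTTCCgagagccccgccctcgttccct
Both strands of the 250 bases before each start were searched, for 8 of the 9 genes in 10 windows. The κB motif, the consensus of NF-κB sites, was found in 5 of 8 genes, HLA-B, HLA-C, B2M, TAP1 and TAPBP, and in 9.96% of 35116 promoters of the same length. The interferon type motifs GAAANNGAA and GAANNGAAA, which can overlap, were found in 4 and 3 of the 8 genes and in 6.88% and 6.56% of all promoters. The short motifs TGACG and CCAAT were found in 6 and 5 of the 8 genes and in 21.2% and 32.0% of all promoters. In HLA-B and HLA-C the κB, interferon type and TGACG motifs follow each other in the same order. TAP1 and PSMB9 start 487 bases apart on opposite strands and face away from each other.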

How the data were processed

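Cy3-labeled RNA of 50 samples was hybridized to single-color Agilent arrays. The deposited intensities, 1 file per array, are the output of Agilent Feature Extraction 11.5.1.1, which had fitted and subtracted a background (per the file headers). The authors' table of log2 values, background corrected and median normalized for 9502 features, was an alternative.

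From the processed intensities, log2 was taken, the array median over the 43118 spots that are not controls was subtracted, outlier spots were left out and spots of a probe were averaged. Probes that failed, as outlier or as not well above background, on 25% or more of the arrays were dropped, which left 20079. Groups were compared with limma 3.58.1 (R 4.3.3), with Benjamini-Hochberg adjustment over all 20079 probes. A probe passed at p under 0.005 between cell lines or 0.006 elsewhere, with adjusted p under 10%. Cell lines were compared unpaired and irradiated groups with CTL with the replicate number as a block, as matched samples in the study's methods. Same-numbered arrays correlated (mean 0.469 to 0.525 against CTL in H1299shRAD9, 0.149 to 0.423 in H1299, where single pairs in BP and DBN were below 0). For the 5 exposures, the arrays of a number were averaged within a line. Missing values (733) stayed missing.

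All probes of the 9 genes are named, as are pathway genes that passed and the 5 genes of the most similar profile. The members, lists and tests were chosen with earlier results of these data known. The code was tested on simulated data. Alternatives were normexp background correction, scaling to the 75th percentile, quantile normalization, other filters, the authors' values, each replicate left out, the replicate block, slide as a block and a single fit. The 5′ to 3′ index as a covariate and leaving out 6 arrays with an extreme index or share of bright probes were added after the data had been seen. Promoters are from RefSeq (GRCh38.p14), probe positions (hg19) from the array design. Precision is limited by the 5 arrays in a group. The result of 1 listed regulator gene is not reported here.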

Additional observations from a re-analysis of the deposited data

Results flagged for a closer look

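In 7 of 140 groups of 5 arrays, 1 array stood apart from the other 4 by Dixon's ratio (gap over range, above 0.71), and 7 such groups are what chance gives. HLA-B A_33_P3399208 stood high on H1299shRAD9 BN replicate 3 (ratio 0.75), where HLA-C A_33_P3330109 stood low (0.861). HLA-B A_33_P3379947 stood low on H1299shRAD9 CTL replicate 5 (0.753) and DBN replicate 5 (0.711). In H1299, HLA-E stood high on DBN replicate 2 (0.809), TAP1 on DBP replicate 2 (0.736) and HLA-C A_33_P3424803 on BN replicate 1 (0.738).

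TAPBP probe A_23_P360291, which was not tested because it was well above background on 4 of 50 arrays, was so on irradiated arrays at -0.58 in H1299shRAD9 DBP replicate 5 and at -1.97 in H1299 BN replicate 4. The CTL arrays of H1299 were not well above background, while 1 CTL array of H1299shRAD9, replicate 4, was, at -0.63.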

How the results depend on the processing

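Counts of members that passed between the cell lines changed with the processing, while in comparisons of exposures 0 passed under every alternative that was run. In CTL 2 of 14 passed as reported. The count was 1 with features positive and significant in place of well above background, where 12.5% of all probes passed. It was 1 also with the criterion on variation between arrays (16.5%), the slide as a random block (7.87%) and all arrays in one fit (9.99%). With the 5′ to 3′ index as a covariate it was 5, where 5.04% of all probes passed. Leaving out 1 replicate gave 1 to 2, where 7.14% to 15.8% did. Over the 5 exposures 3 passed as reported. The count was 5 with quantile normalization and with scaling to the 75th percentile, where 13.8% and 13.5% of all probes passed. It was 6 with all arrays in one fit and with all arrays without averaging, where 44.1% and 45% did. With the slide as a fixed block it was 0, where 11.2% did. Leaving out 1 replicate gave 1 to 2, where 8.61% to 19.6% did. In the irradiated groups together 2 of 56 tests passed as reported. The count was 9 with quantile normalization, where 3.84% to 6.48% of all probes passed in a group. It was 6 with scaling to the 75th percentile (4.63% to 6.62%) and 1 with the authors' values (6.35% to 9.21%). One fit gave 7 (8.07% to 14.3%) and the index 5 (7.49% to 12%). Leaving out 1 replicate gave 1 to 2, where 0.364% to 8.8% of all probes passed in a group. With the replicate number as a block the count was 1 in CTL, where 9.27% of all probes passed. It was 1 in the irradiated groups, where 5.33% to 7.68% did, and the block changed no other count of the cell lines. The causes were not tested.

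Signs turned in 10 cases, none of which passed. PSMB9 in CTL went to -0.01 (75th percentile), -0.02 (quantile) and -0.05 (normexp), and over the 5 exposures to -0.04 with each of the first 2. TAPBP A_23_P259580 in CTL went to -0.04 and -0.01 with these. With the slide as a fixed block, TAPBP A_23_P365719 went to 0.12 and B2M to 0.24 over the 5 exposures. HLA-B A_33_P3424800 in CTL ranged from -0.24 to 0.03 when 1 replicate was left out, 0.03 being without replicate 1.

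Slide blocks could not be fitted to the line differences within single irradiated groups, nor a fixed slide block to that in CTL. Probes near background have the least certain values, and TAP2 A_23_P368067 has none.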
